A study of Homo sapiens with 8 samples.

Results

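The autophagy and lysosome genes described here were 42 genes chosen by name, of 36474 genes with counts in the table. All 42 were found once each by their gene symbol, and all 42 had enough counts to be tested. By role they comprised 26 genes of the autophagy machinery and its cargo receptors, 3 MiT/TFE transcription factors, and 13 genes of the lysosome (3 membrane proteins, 7 hydrolases and 3 subunits of the proton pump).

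Autophagy encloses cytoplasm in a double membrane, the autophagosome, which then fuses with the lysosome, an acidic organelle whose hydrolases break the contents down. When nutrients are scarce, the kinase mTORC1 is less active, which releases the ULK1 initiation complex and lets the MiT/TFE factors TFEB and TFE3 enter the nucleus, where they bind an E-box called the CLEAR element in the promoters of lysosome and autophagy genes. Small ubiquitin-like proteins of the ATG8 family, to which MAP1LC3B belongs, are attached to the growing membrane and capture cargo receptors such as SQSTM1, and the ATG8 proteins and their cargo are partly degraded in the process. Much of this control acts on proteins, and RNA-Seq reads only the mRNA.

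RNA was sequenced from LNCaP, an established human prostate cancer line grown from a metastasis. All cells, those at 0 h included, had been starved for some hours in medium lacking serum and calcium. The 3 groups were 0 h (2 libraries), 12 h (3 libraries) and 24 h (3 libraries), and the 12 h and 24 h cells received recombinant human asporin (ASPN), a protein secreted by stromal cells, at 100 ng/mL. The study asked what ASPN does to prostate cancer cells. Fed cells, and cells held in the medium for 12 or 24 h with no ASPN, were not analysed here. Hence none of the comparisons sets starved against fed cells, and time in the starvation medium and ASPN cannot be told apart. The second 0 h library carried no replicate number that the 0 h labels also held, and is called the unnumbered 0 h library. A single cell line was used. The labels call the libraries biological replicates, and the study's methods describe cells plated in replicate wells. Neither showed that the wells were separate cultures grown on different days.

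Library totals ran from 73406825 to 96962135 counts, and mitochondrial genes took 6.20% to 7.32% of them. Levels are given as CPM, counts divided by the library total on a common scale after TMM scaling, which makes libraries of different depth comparable. The summed level of 8 LNCaP markers was 4558 to 4661 CPM at 0 h, 5059 to 5101 CPM at 12 h and 5083 to 5250 CPM at 24 h. Of the 8, 5 rose and 0 fell at 12 h, and 7 rose and 1 fell at 24 h (KRT18, -0.14, adjusted p = 0.0212, edgeR). The androgen-regulated KLK3 rose by 0.49 and 0.31 on the log2 scale. Markers of basal epithelium and leukocytes summed to at most 0.229 and 0.220 CPM, while 5 fibroblast markers summed to 21.2 to 23.8 CPM and 3 endothelial markers to 11.2 to 17.3 CPM. Of these, the fibroblast marker DCN and the endothelial markers PECAM1 and CDH5 had at most 5 counts in every library. The fibroblast sum was mostly COL1A1, at 18.9 to 21.3 CPM, while COL3A1, LUM and PDGFRB were each at most 1.83 CPM. The endothelial sum was almost all VWF, which was 11.2 to 17.3 CPM and changed by -0.15 at 12 h (adjusted p = 0.292) and -0.38 at 24 h (adjusted p = 0.00175, edgeR). The part of these shifts in the results below was not tested. In bulk RNA, a change in the share of some cells and a change in RNA per cell cannot be told apart.

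The genes of autophagosome formation were lower at 12 and 24 h than at 0 h where they changed, except ATG9A and SQSTM1, and 2 of 13 lysosomal genes passed the test at each time. A gene is said to have passed, and to have risen or fallen, where the quasi-likelihood F test of edgeR gave a p of at most 0.05 after Benjamini-Hochberg adjustment over all 21071 tested genes. At 12 h, 12 of the 42 genes passed (1 higher and 11 lower), or 28.6%, beside 11.6% of all tested genes (4.85% higher and 6.75% lower). At 24 h, 14 passed (2 higher and 12 lower), or 33.3%, beside 16.3% of all tested genes (7.82% higher and 8.49% lower). The median log2 change of the 42 genes was -0.042 at 12 h and -0.028 at 24 h, against -0.00069 and -0.0031 over all tested genes. Both comparisons use the same 2 libraries at 0 h, so their results are not independent of each other. The tested genes include some with few counts, for which a change is harder to detect than for the 42 genes, so the shares are not matched for level. In DESeq2, which sets aside more genes of low count, they were 31% beside 17.8% at 12 h and 33.3% beside 22.6% at 24 h.

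**Figure D1:**
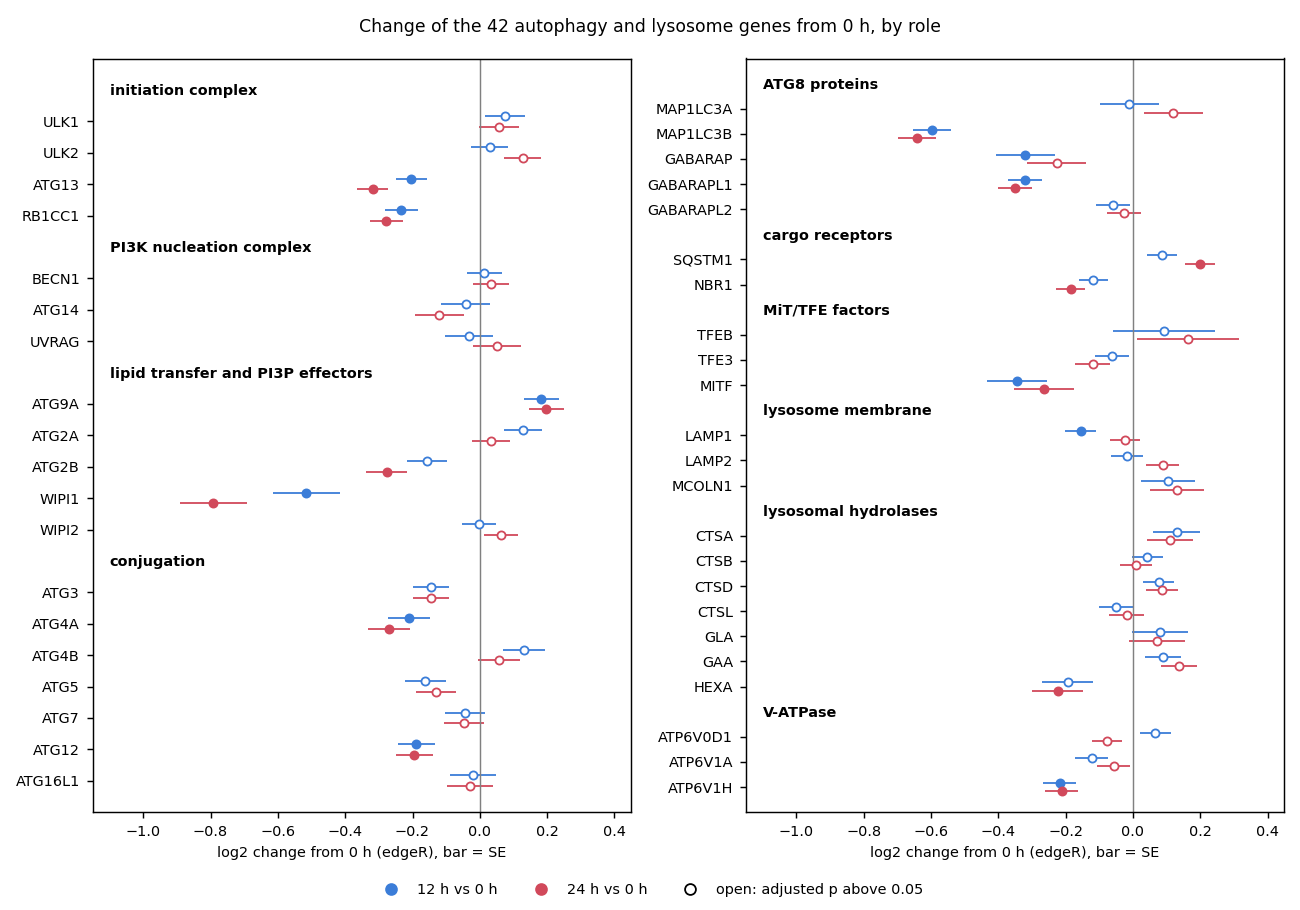
Log2 change from 0 h of the 42 genes at 12 h (blue) and 24 h (red), grouped by role, with standard errors as bars. Filled points passed an adjusted p of 0.05 (12 genes at 12 h and 14 at 24 h), and the points farthest to the left are MAP1LC3B at 12 h (-0.60) and WIPI1 at 24 h (-0.79).

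Changes were small. Those that passed ran from 0.662 to 1.13 times the 0 h level at 12 h and from 0.578 to 1.15 times at 24 h. With a fold of at least 1.5 also required, as the study did, 1 gene remained at 12 h (MAP1LC3B) and 2 at 24 h (MAP1LC3B and WIPI1), or 2.38% and 4.76% of the 42 genes beside 1.05% and 2.45% of all tested genes. The counts rest in part on a single library. Without 0 h replicate 1 the 12 h count fell from 12 to 3 genes (7.14%, beside 2.79% of all genes), and the 24 h count from 14 to 10 (23.8%, beside 7.13%). The 3 genes that passed at 12 h without it were MAP1LC3B, GABARAPL1 and ATP6V1H.

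Of the 26 machinery genes, 9 passed at 12 h (1 higher, 8 lower) and 11 at 24 h (2 higher, 9 lower), or 34.6% and 42.3%, with median log2 changes of -0.051 and -0.083. The 2 of 13 lysosomal genes that passed at each time, all of them lower, were 15.4%, beside 11.6% of all tested genes at 12 h and 16.3% at 24 h, so the lysosomal genes passed about as often as genes in general. The difference between both sets was not tested. Their median log2 changes were 0.043 and 0.0095. Groups are said not to overlap where every library of a time point lay on the same side of both 0 h libraries. At 12 h, 16 of the 42 genes lay below without overlap and 8 above, beside 19.6% and 17.3% of all tested genes. At 24 h these numbers were 17 below and 9 above, beside 21.7% and 21.5%.

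The promoters of these genes are shown for 2 sets, some of the lysosomal genes that hold the CLEAR core and the machinery genes that fell most. CTSA and ATP6V0D1 hold the core too and are not printed. The first set was picked for the core and the second for the fall, so the printed sets are examples and not a comparison. RefSeq promoters on GRCh38.p14 were found for 34 of the 42 genes, and windows of 210 bases, from 200 before to 10 after the RefSeq start, are printed 5′ to 3′ along the gene. Capitals mark the E-box core CACGTG, which reads the same on both strands, and, where they run longer, the palindrome GTCACGTGAC that contains it. LAMP1 (chr13:113297039-113297248, plus strand), MCOLN1 (chr19:7522424-7522633, plus strand), GAA (chr17:80101381-80101590, plus strand) and CTSD (chr11:1763918-1764127, minus strand) hold it.
LAMP1: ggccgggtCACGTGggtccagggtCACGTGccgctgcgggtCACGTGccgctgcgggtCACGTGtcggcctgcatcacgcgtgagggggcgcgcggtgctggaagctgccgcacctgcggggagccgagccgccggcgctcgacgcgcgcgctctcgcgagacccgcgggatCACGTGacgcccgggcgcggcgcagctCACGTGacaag
MCOLN1: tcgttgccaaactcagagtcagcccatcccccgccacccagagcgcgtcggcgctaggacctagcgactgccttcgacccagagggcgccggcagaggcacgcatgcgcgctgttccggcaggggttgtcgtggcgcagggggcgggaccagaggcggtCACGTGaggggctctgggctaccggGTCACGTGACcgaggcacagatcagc
GAA: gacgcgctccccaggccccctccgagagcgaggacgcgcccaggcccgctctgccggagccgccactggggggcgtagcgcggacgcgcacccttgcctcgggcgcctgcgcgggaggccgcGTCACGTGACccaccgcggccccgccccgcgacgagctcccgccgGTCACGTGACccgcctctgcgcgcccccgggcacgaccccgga
CTSD: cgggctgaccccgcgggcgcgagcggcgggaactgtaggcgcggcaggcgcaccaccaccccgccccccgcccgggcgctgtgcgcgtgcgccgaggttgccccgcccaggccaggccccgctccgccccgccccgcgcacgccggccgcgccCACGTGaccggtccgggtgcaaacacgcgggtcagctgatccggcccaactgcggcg

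MAP1LC3B (chr16:87392136-87392345, plus strand), GABARAPL1 (chr12:10212677-10212886, plus strand) and WIPI1 (chr17:68457487-68457696, minus strand) had the lowest log2 changes at 24 h among the 42 genes, and no CACGTG was found in their windows, which says only that these letters are not there.
MAP1LC3B: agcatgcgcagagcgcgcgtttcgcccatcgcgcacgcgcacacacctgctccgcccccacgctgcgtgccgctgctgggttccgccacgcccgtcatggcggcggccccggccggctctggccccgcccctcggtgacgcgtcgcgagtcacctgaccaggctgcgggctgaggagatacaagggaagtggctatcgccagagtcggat
GABARAPL1: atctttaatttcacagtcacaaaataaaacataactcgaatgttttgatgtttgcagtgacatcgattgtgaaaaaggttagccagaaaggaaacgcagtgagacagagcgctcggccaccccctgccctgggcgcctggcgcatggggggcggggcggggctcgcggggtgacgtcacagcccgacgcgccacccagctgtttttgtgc
WIPI1: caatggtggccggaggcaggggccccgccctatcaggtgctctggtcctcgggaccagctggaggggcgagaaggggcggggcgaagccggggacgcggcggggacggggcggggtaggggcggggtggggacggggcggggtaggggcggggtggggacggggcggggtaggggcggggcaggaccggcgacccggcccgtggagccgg

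Over the full promoter (250 bases before to 50 after the start), 8 of the 34 genes held CACGTG, or 23.5%, beside 2030 of 27305 RefSeq promoters (7.43%). A single start per gene was read, and for some genes, ATG5 and MAP1LC3B among them, it lay inside the annotated gene. Any other starts were not read. The holders were mostly lysosomal, 6 of the 8 lysosomal genes with a promoter (LAMP1, MCOLN1, CTSA, CTSD, GAA and ATP6V0D1). Of the machinery genes with a promoter 2 of 23 held it (ATG14 and ATG3), and of the MiT/TFE genes 0 of 3. The lysosomal genes LAMP2, CTSB, HEXA, ATP6V1A and ATP6V1H were absent from the set of RefSeq promoters used here and could not be read. HEXA and ATP6V1H, which fell, are thus in neither set of the comparison by motif. LAMP1 held 6 copies, beginning 192, 176, 159, 142, 28 and 1 bases before its start. The 10-base palindrome was found in 2 of the 34 promoters, with 2 copies in GAA and 1 in MCOLN1, beside 104 of all promoters (0.381%).

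Of the 8 genes with CACGTG, none rose at either time, and LAMP1 alone fell, at 12 h. Their median log2 change was 0.072 at 12 h and 0.032 at 24 h. Of the 26 without it, 1 rose and 8 fell at 12 h, and 2 rose and 9 fell at 24 h, with medians of -0.054 and -0.038. Among all tested genes 4.85% rose and 6.75% fell at 12 h, and 7.82% rose and 8.49% fell at 24 h. With 8 genes, so few calls lie near those shares. The difference between the sets was not tested, and most genes with the motif were lysosomal. A match is a description of the sequence and was not measured as a bound site.

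**Figure D2:**
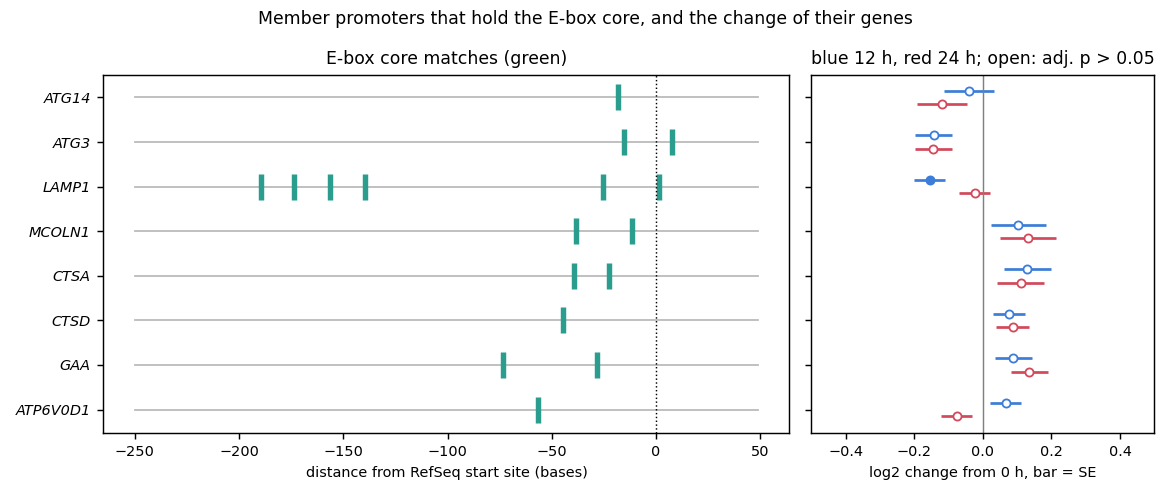
Left, CACGTG matches (green) in the 8 promoters that hold one, as distance in bases from the RefSeq start. Right, the log2 change of each gene from 0 h at 12 h (blue) and 24 h (red) with standard errors; only LAMP1 at 12 h (-0.16) passed the test.

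In the initiation complex, which starts autophagosome formation, the scaffold subunits fell and the kinases did not pass. ATG13, the subunit that ties the kinase to the complex, stood at 135.1 and 128.7 CPM in 0 h replicate 1 and the unnumbered 0 h library, at 117.0, 114.1 and 112.6 CPM in 12 h replicates 1 to 3, and at 105.0, 107.5 and 104.8 CPM in 24 h replicates 1 to 3. The 3 groups did not overlap, with 24 h lowest. Its log2 change was -0.20 ± 0.046 (SE) at 12 h (adjusted p = 0.00272, edgeR, as are all adjusted p below) and -0.32 ± 0.046 at 24 h (adjusted p = 4.4e-06). RB1CC1, also named FIP200, the large scaffold of the complex, stood in the same order of libraries at 116.7 and 109.3 CPM, then 90.79, 98.17 and 99.60 CPM, then 90.56, 94.68 and 94.61 CPM. Both 0 h libraries were above all 6 later ones, and the change was -0.23 ± 0.050 at 12 h (adjusted p = 0.00172) and -0.28 ± 0.050 at 24 h (adjusted p = 0.000117). Without 0 h replicate 1 the 12 h change of neither gene passed (adjusted p = 0.0911 for ATG13 and 0.097 for RB1CC1). The kinases ULK1 and ULK2 changed by 0.075 and 0.029 at 12 h and by 0.057 and 0.13 at 24 h, none of which passed (adjusted p from 0.126 to 0.819).

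The PI3K nucleation complex makes the lipid PI3P on the forming membrane. None of BECN1, its scaffold, ATG14, which directs it to autophagy, and UVRAG, the subunit that takes the place of ATG14 in the endosomal form, passed at either time. Their log2 changes from 0 h ran from -0.12 to 0.052, with 95% intervals between -0.262 and 0.191.

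Among the genes for lipid transfer and PI3P binding, WIPI1, which binds PI3P on the early membrane, had the largest fall of the 42 genes at 24 h. Its level was 18.46 and 13.37 CPM at 0 h, 12.11, 10.55 and 10.85 CPM at 12 h, and 8.943, 9.520 and 9.174 CPM at 24 h. The groups did not overlap, but the 0 h libraries lay farther from each other than the lower of them lay from 12 h. The mean fell from 15.9 ± 3.60 CPM (SD, n = 2) to 11.2 ± 0.825 CPM (n = 3) at 12 h and to 9.21 ± 0.291 CPM (n = 3) at 24 h, log2 changes of -0.52 ± 0.099 (SE; adjusted p = 0.00053) and -0.79 ± 0.099 (adjusted p = 5.51e-07). Without 0 h replicate 1 these became -0.26, which did not pass (adjusted p = 0.249), and -0.54, which passed. WIPI1 shares 24.4% of its exon bases with ARSG on the opposite strand, which had 12492 counts in all libraries against 7830 for WIPI1. Whether reads of ARSG were counted for WIPI1 was not tested. Its relative WIPI2, which recruits the conjugation machinery, changed by -0.0022 and 0.063 and did not pass (adjusted p = 0.986 and 0.466).

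ATG9A, a membrane protein of the vesicles that seed the autophagosome, was the only gene of the 42 that rose at both times. It stood at 50.25 and 47.73 CPM at 0 h, 56.52, 54.42 and 55.85 CPM at 12 h, and 56.78, 57.04 and 54.77 CPM at 24 h. All 6 later libraries were above both at 0 h, and the 12 h and 24 h groups overlapped. The log2 change was 0.18 ± 0.052 at 12 h (adjusted p = 0.0186) and 0.20 ± 0.052 at 24 h (adjusted p = 0.00721). The 12 h call was lost in 6 of 16 alternatives, among them without either 0 h library and with the correction for GC content and length. The 24 h call was lost in 2, without the unnumbered 0 h library and with the same correction. A gene annotated on the same strand shares 38.8% of the exon bases of ATG9A and had 96 counts in all.

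Of ATG2A and ATG2B, which move lipids into the growing membrane, only ATG2B passed, at 24 h. ATG2B stood at 61.99 and 58.70 CPM at 0 h, 48.82, 54.30 and 59.29 CPM at 12 h, and 50.28, 49.35 and 49.84 CPM at 24 h. One of the 12 h libraries lay within the 0 h range, and the 24 h libraries were all below it. The 24 h change of -0.28 ± 0.060 passed (adjusted p = 0.00114) and the 12 h change of -0.16 ± 0.060 did not (adjusted p = 0.0932). The direct difference between 24 and 12 h, -0.12, did not pass (adjusted p = 0.307). ATG2A changed by 0.13 and 0.033 without passing (adjusted p = 0.153 and 0.775).

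Of the 7 genes for conjugation of ATG8 proteins to the membrane, 2 fell at both times and the others did not pass. ATG4A, a protease that trims ATG8 proteins, stood at 30.06 and 29.11 CPM at 0 h, 25.16, 24.85 and 26.71 CPM at 12 h, and 24.17, 24.10 and 25.41 CPM at 24 h. Every later library was below both at 0 h, with log2 changes of -0.21 ± 0.062 (adjusted p = 0.0233) and -0.27 ± 0.062 (adjusted p = 0.0022). ATG12, a ubiquitin-like protein joined to ATG5, stood at 48.40 and 44.61 CPM at 0 h, 39.94, 41.34 and 41.18 CPM at 12 h, and 41.22, 39.99 and 40.79 CPM at 24 h. The later groups overlapped each other and lay below 0 h, with changes of -0.19 ± 0.055 at both times (adjusted p = 0.0212 and 0.0127). Without 0 h replicate 1, ATG12 passed at neither time and ATG4A only at 24 h. The 12 h calls of ATG4A and ATG12 were each lost in 7 of 16 alternatives and the 24 h call of ATG12 in 3, the correction for GC content and length among them each time. ATG3 and ATG7, the enzymes that activate and transfer ATG8 proteins, ATG5, ATG16L1, which places the ATG12 conjugate on the membrane, and the second trimming protease ATG4B had log2 changes from -0.16 to 0.13.

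The ATG8 family itself was the group with the most falls at 12 h, 3 of its 5 members. MAP1LC3B, the LC3 protein most used to mark autophagosomes, lies on chromosome 16 at 87383953 to 87404779 (GRCh38). It stood at 104.0 and 89.19 CPM at 0 h, 67.82, 61.46 and 62.55 CPM at 12 h, and 61.04, 60.72 and 64.14 CPM at 24 h. The lower 0 h library was above every later library, and the 12 h and 24 h groups overlapped. The mean fell from 96.6 ± 10.5 CPM (SD, n = 2) to 63.9 ± 3.40 CPM (n = 3) and 62.0 ± 1.89 CPM (n = 3), which is 0.662 and 0.641 times the 0 h level. The log2 changes were -0.60 ± 0.057 (adjusted p = 2.5e-08) and -0.64 ± 0.057 (adjusted p = 6.28e-10), and both passed in all 16 alternatives. A near copy, MAP1LC3B2, is 97.9% identical over 23.8% of the transcript and had 188 counts in all libraries against 47963 for MAP1LC3B.

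GABARAPL1, a member of the GABARAP branch that also binds receptors and fusion factors, lies on chromosome 12 at 10212458 to 10223128. Its level was 82.09 and 78.05 CPM at 0 h, 64.57, 62.26 and 65.66 CPM at 12 h, and 64.60, 61.49 and 62.26 CPM at 24 h. Again both 0 h libraries lay above all others and the later groups overlapped. The log2 change was -0.32 ± 0.050 at 12 h (adjusted p = 3.49e-05) and -0.35 ± 0.050 at 24 h (adjusted p = 3.67e-06), and it passed in every alternative. GABARAP, the founding member of that branch, stood at 20.03 and 19.42 CPM at 0 h, 13.26, 18.12 and 15.96 CPM at 12 h, and 16.44, 16.54 and 17.65 CPM at 24 h. All later libraries were below 0 h, with a wide spread at 12 h. Its 12 h change of -0.32 ± 0.087 passed (adjusted p = 0.0135) but not without 12 h replicate 1 or without either 0 h library, and its 24 h change of -0.23 ± 0.087 did not pass (adjusted p = 0.0753). A same-strand readthrough gene with 0 counts shares 35.4% of the exon bases of GABARAP.

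The remaining ATG8 genes, MAP1LC3A and GABARAPL2, changed by -0.011 and -0.059 at 12 h and by 0.12 and -0.027 at 24 h, and neither passed (adjusted p from 0.422 to 0.963). Levels can be compared between genes only per length, as CPM per kilobase of exon, and then only roughly. The length used is that of all annotated exons of a gene joined, which can exceed that of the transcripts made. For MAP1LC3B it was 5037 bases, while its longest annotated transcript has 3134. The shares below depend on these lengths. On that scale the 5 genes summed to 85.1 and 81.4 at 0 h, to 71.4, 69.7 and 68.5 at 12 h, and to 72.2, 70.0 and 71.6 at 24 h. MAP1LC3B made up 24.3% and 21.8% of this sum at 0 h, 18.9%, 17.5% and 18.1% at 12 h, and 16.8%, 17.2% and 17.8% at 24 h. GABARAPL2 made up 26.9% and 27.0% at 0 h and from 30.2% to 31.6% in the later libraries. The sum and the MAP1LC3B share were both lower in every later library than at 0 h, and the GABARAPL2 share was higher.

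**Figure D3:**
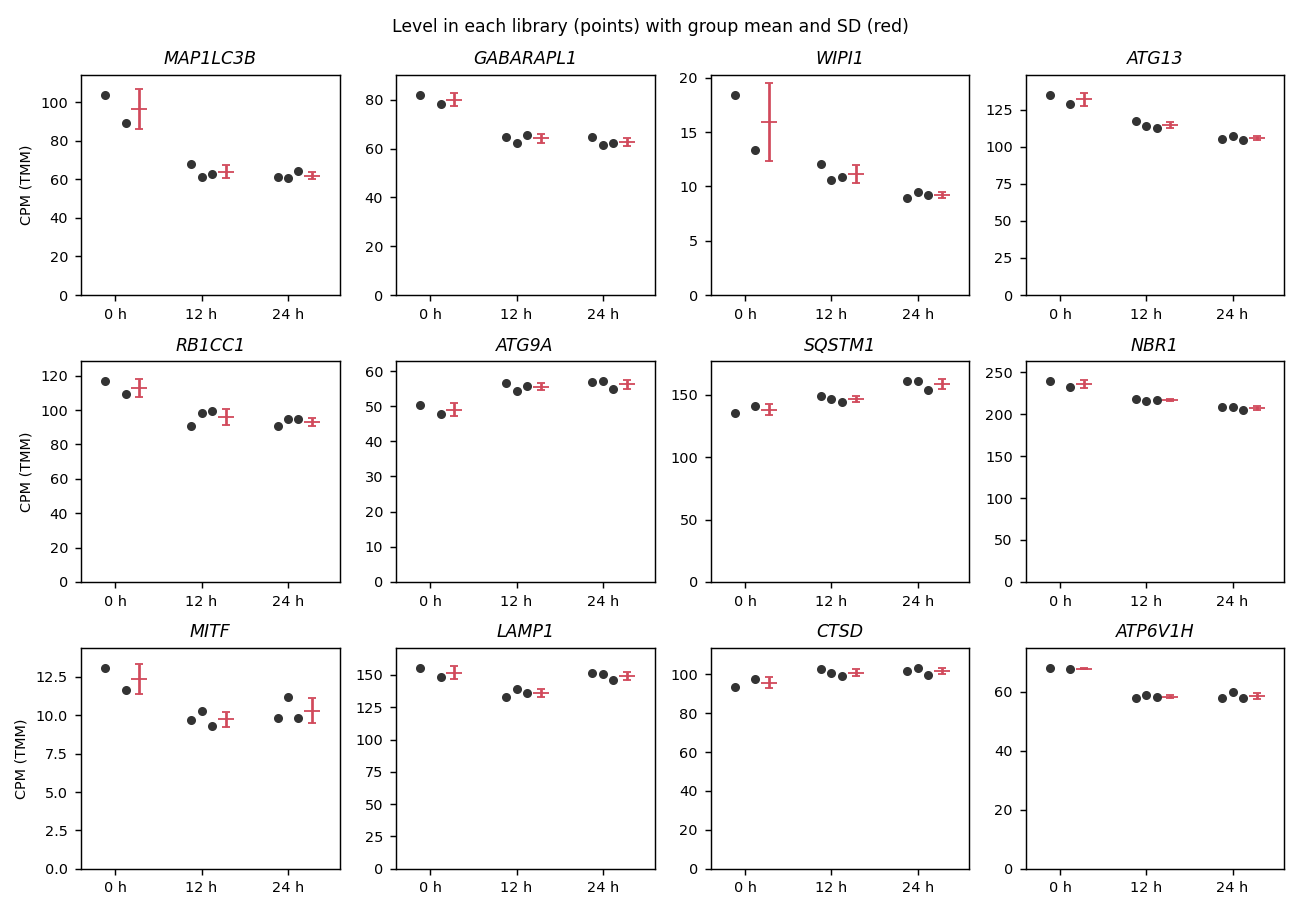
Level in CPM in each of the 8 libraries (points) with the group mean and SD in red, for 12 genes at 0, 12 and 24 h; each vertical axis starts at 0. MAP1LC3B, GABARAPL1, ATG13 and ATP6V1H lie higher in both 0 h libraries than in every later library, and CTSD moves from a mean of 95.7 CPM at 0 h to 102 CPM at 24 h without passing the test.

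The cargo receptors moved in opposite directions at 24 h. SQSTM1, or p62, which links ubiquitinated cargo to ATG8 proteins, stood at 135.1 and 141.2 CPM at 0 h, 149.3, 146.5 and 144.0 CPM at 12 h, and 160.7, 160.7 and 154.1 CPM at 24 h. The groups did not overlap and 24 h was highest. The 24 h change of 0.20 ± 0.045 passed (adjusted p = 0.0019) but not without 0 h replicate 1 (adjusted p = 0.0626), and the 12 h change of 0.086 ± 0.045 did not pass (adjusted p = 0.255). SQSTM1 shares 21.0% of its exon bases with MRNIP on the opposite strand, which had 9857 counts in all libraries against 100824 for SQSTM1. NBR1, a related receptor, stood at 239.2 and 232.4 CPM at 0 h, 218.6, 215.7 and 217.6 CPM at 12 h, and 208.3, 208.8 and 205.2 CPM at 24 h. Its groups did not overlap either, in the opposite order. NBR1 fell at 24 h by 0.18 ± 0.042 on the log2 scale (adjusted p = 0.00199), and its 12 h change of -0.12 did not pass (adjusted p = 0.0696).

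Of the MiT/TFE factors, only MITF passed. TFEB stood at 3.008 and 4.717 CPM at 0 h, 3.993, 4.497 and 3.778 CPM at 12 h, and 3.922, 4.693 and 4.274 CPM at 24 h. All 6 later libraries lay between both 0 h libraries, so no difference was detectable at this spread (log2 changes of 0.092 ± 0.15 and 0.16 ± 0.15, adjusted p = 0.786 and 0.547). TFE3 stood at 75.73 and 79.27 CPM at 0 h, 78.67, 71.40 and 72.61 CPM at 12 h, and 72.69, 71.72 and 69.46 CPM at 24 h. The 24 h libraries were below both at 0 h and the 12 h libraries overlapped them, and neither change passed (-0.062, adjusted p = 0.517, and -0.12, adjusted p = 0.115). MITF, best known from pigment cells, stood at 13.06 and 11.66 CPM at 0 h, 9.684, 10.26 and 9.285 CPM at 12 h, and 9.843, 11.22 and 9.841 CPM at 24 h. It was lower in all later libraries, by -0.34 ± 0.089 at 12 h (adjusted p = 0.00908) and -0.26 ± 0.089 at 24 h (adjusted p = 0.0391). Without 0 h replicate 1 it passed at neither time. Per kilobase of annotated exon at 0 h, a rough scale between genes, TFE3 stood at 18.4 CPM and TFEB at 0.575 CPM, the lowest of the 42 genes. These are mRNA levels and say nothing of where the proteins were.

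Among the lysosomal membrane proteins, LAMP1, a main glycoprotein of the lysosomal membrane, fell at 12 h. It lies on chromosome 13 at 113297239 to 113323672 and stood at 155.1 and 148.3 CPM at 0 h, 133.2, 139.0 and 136.3 CPM at 12 h, and 151.3, 150.7 and 145.8 CPM at 24 h. The 12 h libraries were below all others, and the 24 h libraries overlapped those at 0 h. The 12 h change was -0.16 ± 0.045 (adjusted p = 0.02), and it was lost in 5 of 16 alternatives, among them without 0 h replicate 1, 12 h replicate 3 or 24 h replicate 2. The 24 h change was -0.023 ± 0.045 (adjusted p = 0.811), and the rise from 12 to 24 h, 0.13, did not pass (adjusted p = 0.0732). LAMP2, its close relative, and MCOLN1, the lysosomal calcium channel that is also called TRPML1, changed by -0.018 and 0.10 at 12 h and by 0.088 and 0.13 at 24 h without passing (adjusted p from 0.243 to 0.874).

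None of the 7 hydrolases rose at either time, beside 4.85% of all tested genes at 12 h and 7.82% at 24 h. With 7 genes, this is near those shares. CTSD, an aspartic protease and a major lysosomal enzyme, stood at 93.69 and 97.71 CPM at 0 h, 103.0, 100.6 and 99.05 CPM at 12 h, and 101.8, 103.1 and 99.89 CPM at 24 h. Both later groups lay above 0 h without overlap, but by 0.077 ± 0.047 and 0.086 ± 0.047, which did not pass (adjusted p = 0.343 and 0.239). HEXA, a subunit of the enzyme that clears gangliosides, stood at 19.72 and 20.52 CPM at 0 h, 15.91, 18.63 and 18.16 CPM at 12 h, and 16.73, 18.43 and 16.44 CPM at 24 h. It was lower in every later library and fell at 24 h (-0.22 ± 0.076, adjusted p = 0.0403), while its 12 h change of -0.19 did not pass (adjusted p = 0.101). The 24 h call was lost in 7 of 16 alternatives, among them DESeq2 and without either 0 h library. The cysteine proteases CTSB and CTSL, the protective protein CTSA, the alpha-galactosidase GLA and the alpha-glucosidase GAA had log2 changes from -0.050 to 0.14, with GAA at 24 h nearest to the threshold (0.14 ± 0.054, adjusted p = 0.0844).

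The V-ATPase pumps protons into the lysosome, with a V1 part that splits ATP and a V0 part in the membrane. ATP6V1H, the regulatory V1 subunit, stood at 67.89 and 67.74 CPM at 0 h, 57.96, 58.92 and 58.06 CPM at 12 h, and 57.92, 59.75 and 58.00 CPM at 24 h. It was lower in all later libraries by a nearly equal step, -0.22 ± 0.049 (adjusted p = 0.00283) and -0.21 ± 0.049 (adjusted p = 0.00227), and passed in all alternatives at both times. ATP6V1A, the catalytic V1 subunit, stood at 175.9 and 167.6 CPM at 0 h, 146.6, 164.7 and 162.2 CPM at 12 h, and 165.8, 167.9 and 161.6 CPM at 24 h, and did not pass (-0.12, adjusted p = 0.109, and -0.057, adjusted p = 0.508). At 12 h all 3 of its libraries were below 0 h, and at 24 h the groups overlapped.

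ATP6V0D1, a V0 subunit, was the only gene of the 42 that passed between 12 and 24 h (2.38%, beside 2.72% of all tested genes, 1.12% higher and 1.61% lower). None passed in edgeR with a fold of at least 1.5, beside 0.18% of all tested genes. An unadjusted p under 0.05 was found for 7 of the 42 genes (16.7%), beside 13.6% of all tested genes. Without overlap, 5 of the 42 genes were lower and 4 higher at 24 h than at 12 h, beside 9.31% and 10.3% of all tested genes. The level of ATP6V0D1 was 121.0 and 125.6 CPM at 0 h, 131.6, 127.4 and 128.4 CPM at 12 h, and 116.6, 117.0 and 117.1 CPM at 24 h. The 12 h libraries were the highest and the 24 h libraries the lowest, with no overlap. The change from 12 to 24 h was -0.14 ± 0.040 (adjusted p = 0.0462), while the changes from 0 h, 0.067 and -0.077, did not pass (adjusted p = 0.404 and 0.287). This call was lost in 6 of 15 alternatives, among them without 12 h replicate 1 or 3 and without any of the 24 h replicates.

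In all, 9 of the 42 genes were lower at both times (ATG13, RB1CC1, WIPI1, ATG4A, ATG12, MAP1LC3B, GABARAPL1, MITF and ATP6V1H) and 26 passed at neither. The log2 changes of these 26 ran from -0.16 to 0.16, with 95% intervals between -0.278 and 0.459. Of the 10 lysosomal genes among them, the changes ran from -0.12 to 0.14 and the intervals from -0.218 to 0.29. GABARAP and LAMP1 passed only at 12 h, and ATG2B, NBR1, HEXA and SQSTM1 only at 24 h. For none of these 6 did the direct difference between 12 and 24 h pass (adjusted p from 0.0732 to 0.905).

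**Figure D4:**
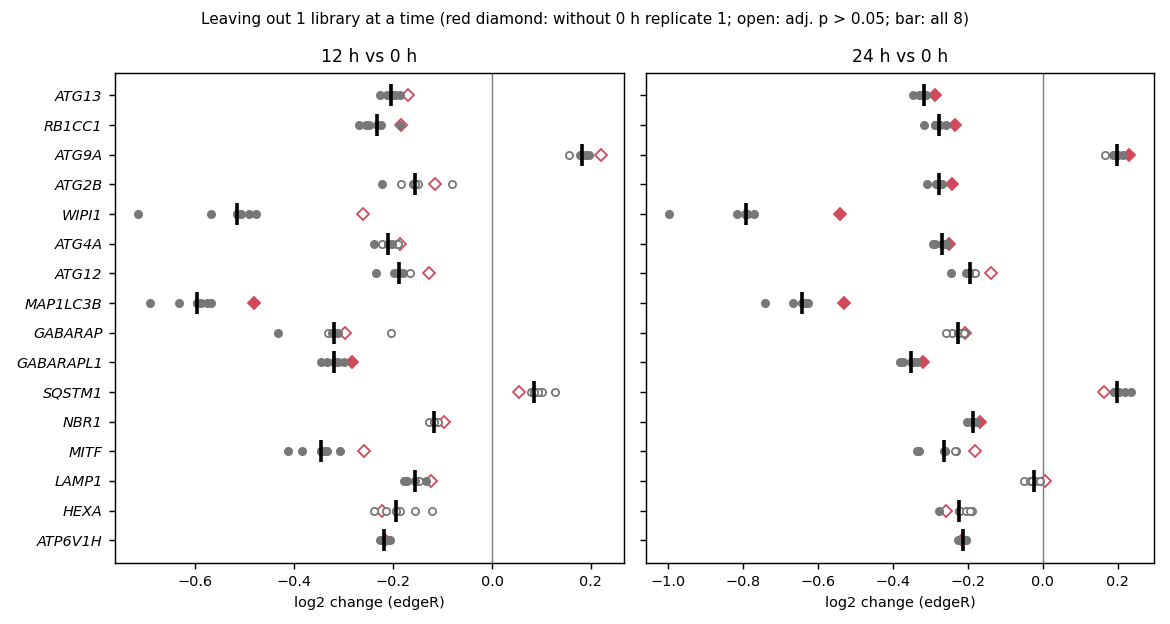
Log2 change from 0 h of the 16 genes that passed at 12 or 24 h with each of the 8 libraries left out in turn; the black bar is the value with all 8, the red diamond the value without 0 h replicate 1, and open points did not pass. Without that library, WIPI1 at 12 h moves from -0.52 to -0.26, while MAP1LC3B, GABARAPL1 and ATP6V1H stay filled at both times.

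Other genes of the pathway were read from 7 lists of 153 genes, of which 149 were tested. At 12 h, 22 of them passed (6 higher, 16 lower), or 14.8%, beside 11.6% of all tested genes, and at 24 h 27 passed (13 higher, 14 lower), or 18.1%, beside 16.3%. These shares were near those of all genes. Between 12 and 24 h, 3 of them passed (2.01%, beside 2.72%). The lists below are to be read against the shares of all tested genes, 4.85% higher and 6.75% lower at 12 h and 7.82% higher and 8.49% lower at 24 h, and whether a list differed from them was not tested. With upper-quartile scaling the 12 h split was 8 higher and 13 lower. Without 0 h replicate 1, 5 genes passed at 12 h and 12 at 24 h. Their median log2 change was -0.032 at 12 h and -0.034 at 24 h.

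Of 19 further genes for initiation, nucleation and elongation, 3 fell at 12 h (15.8%) and 5 at 24 h (26.3%), and none rose. TMEM41B, an ER protein that moves lipids across the bilayer, fell from 99.32 and 88.57 CPM at 0 h to between 69.68 and 75.59 CPM at 12 h and between 64.16 and 67.50 CPM at 24 h. The groups did not overlap, with changes of -0.36 ± 0.053 (adjusted p = 1.63e-05) and -0.52 ± 0.053 (adjusted p = 1.13e-08). Its partner VMP1 fell by 0.18 and 0.19 on the log2 scale (adjusted p = 0.0225 and 0.0124), and SH3GLB1, a membrane-bending protein, by 0.28 and 0.37 (adjusted p = 0.00176 and 2.77e-05).

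Of 16 other cargo receptors tested, 6 fell (37.5%) and none rose at 12 h, and 3 fell (18.8%) and 1 rose at 24 h. CCPG1, a receptor for the endoplasmic reticulum, stood at 22.46 and 19.21 CPM at 0 h, 12.12, 12.75 and 13.21 CPM at 12 h, and 13.06, 14.55 and 13.20 CPM at 24 h. Its log2 changes of -0.72 ± 0.080 (adjusted p = 2.39e-07) and -0.62 ± 0.079 (adjusted p = 7.27e-07) were the only ones among these 149 genes past a fold of 1.5. CALCOCO2, or NDP52, which recognises bacteria and damaged mitochondria, fell by 0.25 and 0.29 on the log2 scale (adjusted p = 0.0003 and 1.34e-05), and RTN3, a receptor for ER tubules, by 0.21 and 0.14 (adjusted p = 0.0013 and 0.0264).

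None of the 13 genes for fusion with the lysosome passed at 12 h, and 3 fell at 24 h (23.1%). These were VPS11, a subunit of the tethering complexes (-0.26, adjusted p = 0.00193), YKT6, a SNARE (-0.20, adjusted p = 0.00287), and TECPR1, a tether (-0.20, adjusted p = 0.0132).

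The 41 other lysosomal hydrolases and activators tested gave 3 higher (7.32%) and 3 lower at 12 h and 8 higher (19.5%) and 2 lower (4.88%) at 24 h. CTSH, a cysteine protease, stood at 141.0 and 151.0 CPM at 0 h, 170.9, 169.4 and 166.7 CPM at 12 h, and 175.1, 179.6 and 175.3 CPM at 24 h. It rose by 0.21 ± 0.045 and 0.28 ± 0.045 (adjusted p = 0.00171 and 3.35e-05), and the dipeptidyl peptidase DPP7 by 0.16 and 0.22 (adjusted p = 0.0259 and 0.00135). The 24 h call of DPP7 was lost with the correction for GC content and length (0.053, adjusted p = 0.37), and its 12 h call in 6 of 16 alternatives, that correction among them. LIPA, the acid lipase of the lysosome, went the other way. It stood at 117.8 and 105.0 CPM at 0 h, 83.81, 92.34 and 84.87 CPM at 12 h, and 77.07, 85.76 and 82.27 CPM at 24 h, changes of -0.36 ± 0.055 (adjusted p = 3.23e-05) and -0.45 ± 0.055 (adjusted p = 3.49e-07).

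Of 23 further lysosomal membrane proteins, 2 fell at 12 h (8.70%) and 1 at 24 h (4.35%), close to all tested genes. LAMTOR3, part of the anchor that holds mTORC1 on the lysosome, fell at both times (-0.27, adjusted p = 0.00248, and -0.19, adjusted p = 0.0245). Over all 20 tested genes of the V-ATPase and its accessory proteins, the listed subunits above included, 1 rose and 3 fell at 12 h, and 3 rose and 1 fell at 24 h. ATP6V0E2 rose at both times (0.16, adjusted p = 0.0267, and 0.17, adjusted p = 0.014), ATP6V1F at 24 h (0.18, adjusted p = 0.0119), and the accessory protein ATP6AP2 fell at 12 h (-0.20, adjusted p = 0.00742).

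Of 20 genes for nutrient signalling through mTORC1 and AMPK, 2 rose at 12 h (10%) and 1 at 24 h (5%), and none fell from 0 h, shares that with 20 genes are near those of all tested genes. FLCN, folliculin, through which mTORC1 controls TFEB and TFE3, rose at 24 h (0.25 ± 0.068, adjusted p = 0.00957), from 19.58 and 20.49 CPM at 0 h to between 22.54 and 25.06 CPM. Its partner FNIP2 rose at 12 h (0.17, adjusted p = 0.0418), as did the mTORC1 inhibitor TSC2 (0.15, adjusted p = 0.0463). Both 12 h calls were weak: that of TSC2 was lost in 10 of 16 alternatives, with a log2 change as low as 0.0022 (adjusted p = 0.986), and that of FNIP2 in 9 of 16. Of the other pathway genes named here, TMEM41B, CALCOCO2, CCPG1 and LIPA still passed at 12 h without 0 h replicate 1, and VMP1, RTN3, LAMTOR3, ATP6V0E2, ATP6V1F and FLCN did not pass at 24 h without it.

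**Figure D5:**
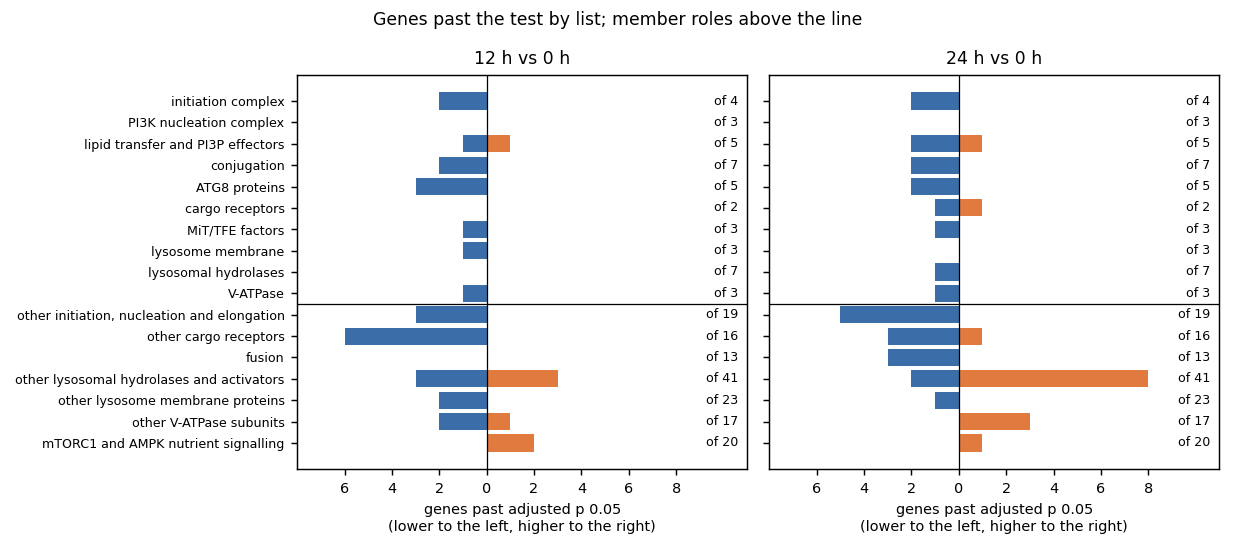
Number of genes that passed an adjusted p of 0.05, lower to the left and higher to the right, for the 10 roles of the 42 genes (above the line) and the 7 other pathway lists (below), with the number tested at the right of each panel. The ATG8 proteins have 3 of 5 lower at 12 h, and the other lysosomal hydrolases 8 of 41 higher at 24 h.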

How the data were processed

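RNA-Seq was performed on 8 libraries of LNCaP cells, 2 at 0 h, 3 at 12 h and 3 at 24 h. Raw, unnormalized counts of reads over genes were deposited, and per the study's methods the authors trimmed reads with Cutadapt, aligned them to GRCh38 with STAR and counted them over GENCODE genes with featureCounts, leaving out a 0 h library for quality. Strand and multi-mapping options were not given in the sources used here, so genes that overlap others or have near copies can share reads. Libraries were grouped by the time in their labels, and 0 columns of per-sample values were left unused.

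Counts of 36474 genes were tested with edgeR 4.0.16 in R 4.3.3 (filterByExpr, TMM, robust quasi-likelihood F test, 1 coefficient per time point over all 8 libraries), which kept 21071 genes and gave a biological coefficient of variation of 5.59%. Standard errors were derived from the log2 change and the F statistic, and 95% intervals from the standard errors. P-values measure only the spread between these libraries, which may be technical. Library totals ran from 73406825 to 96962135 counts, and 3 counts, the limit that a count of 0 allows, are 0.031 to 0.0413 CPM, which covers counting error only. Gene coordinates and exon overlaps were taken from GENCODE 44, in which 30996 gene identifiers, version included, and their coordinates were equal. No pair of libraries agreed within sampling noise.

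The 42 genes and the other lists were chosen with earlier results of these data known. Values per library are given for genes that passed, at most 3 per role, and always for SQSTM1, MAP1LC3B, TFEB, TFE3, LAMP1, CTSD and ATP6V1A; at most 3 genes are named per other list, by smallest adjusted p. The values of 1 such gene are not reported here. The alternatives were RLE and upper-quartile scaling, no filter, DESeq2 1.42.0, the compared time points alone, each library left out, a replicate block between 12 and 24 h and, added after seeing the data, a replicate block against 0 h and a GC and length correction. Counts were also simulated for 24 h against 0 h over 21144 genes. The test recovered 61.2%, 83.6% and 98.5% of 67, 67 and 66 genes changed by 1.25, 1.5 and 2 times. The changed genes were drawn only from genes not low in counts, and no other gene was changed. The shares therefore do not give the power over all genes or in these data.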

Additional observations from a re-analysis of the deposited data

Results flagged for a closer look

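Of the genes described, 4 differed between 12 and 24 h by the direct test of that difference, so that their change from 0 h was not the same at both times. They were 1 of the 42 genes (2.38%) and 3 of 149 other pathway genes (2.01%), beside 2.72% of all tested genes, so calls were no more frequent here than among genes in general. The log2 change of ATP6V0D1 from 12 to 24 h was -0.14 (adjusted p = 0.0462, edgeR), with changes from 0 h of 0.067 at 12 h and -0.077 at 24 h. EPG5, a tether for fusion with the lysosome, was lower at 24 h by -0.22 (adjusted p = 0.0283), with changes from 0 h of 0.098 and -0.12. It was counted above among the genes for initiation, nucleation and elongation, and was named after its values were seen. LAPTM4B, a lysosomal membrane protein, was higher at 24 h by 0.16 (adjusted p = 0.0449), with changes of -0.025 and 0.13. FNIP2, the partner of FLCN, was lower at 24 h by -0.18 (adjusted p = 0.0365), with changes of 0.17 and -0.013. Each of these calls was lost without 12 h replicate 3 and without each of the 24 h replicates in turn. With groups of 2 or 3 libraries, single libraries far from their group could not be tested.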

How the results depend on the processing

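No gene of the 42 that passed changed direction under any alternative. MAP1LC3B, GABARAPL1 and ATP6V1H at both times, and ATG13, RB1CC1, ATG2B, WIPI1, ATG4A and NBR1 at 24 h, passed in all 16 alternatives. Over single genes and alternatives, calls were lost in 32 cases at 12 h, 18 at 24 h and 6 between 12 and 24 h, and gained in 7, 16 and 12. For the named other pathway genes, run through the same alternatives after seeing the data, calls were lost in 48, 25 and 18 cases and gained in 4, 7 and 10, with none reversed. With a fold of at least 1.5 also required, the numbers of the 42 genes were 1 at 12 h, 2 at 24 h and 0 between 12 and 24 h, and of the other pathway genes 1, 1 and 0. In the fit to the compared time points alone, the other pathway genes at 12 h were 12 and the 42 genes between 12 and 24 h gave 2. Between 12 and 24 h, DESeq2 gave 3 of the 42 genes and 7 other pathway genes, and the correction for GC content and length, chosen after seeing the data, gave 4 and 11. RLE or upper-quartile scaling gave 2 other pathway genes there, 0 of them higher, against 1 higher and 2 lower with TMM. The cause of these shifts was not tested.

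With a library left out in turn, the 42 genes gave 3 to 12 at 12 h, 10 to 17 at 24 h and 0 to 2 between 12 and 24 h, and the other pathway genes 5 to 28, 12 to 40 and 0 to 5. For the other pathway genes the lowest numbers, 5 at 12 h and 12 at 24 h, came from leaving out 0 h replicate 1. Without 12 h replicate 1 they were 14 at 12 h, and without 24 h replicate 1, 2 or 3 they were 15, 17 and 16 at 24 h. Between 12 and 24 h, no gene of the 42 and no other pathway gene passed without 12 h replicate 3 or without any of the 24 h replicates, and without either 0 h library the numbers were 2 and 5; without 12 h replicate 2 the other pathway genes gave 1. An arm left with 1 library was assumed to vary like the others. Against 0 h, a replicate block over all 8 libraries, added after seeing the data, had to give the unnumbered 0 h library a number. With the number of its count column, which no 0 h label holds, 11 of the 42 genes passed at 12 h and 15 at 24 h, and 19 and 23 other pathway genes. With the 0 h label number that no other column carries, the block gave 9 and 12 of the 42 genes, and 13 and 20 other pathway genes. Between 12 and 24 h, a replicate block gave 3 of the 42 genes and 6 other pathway genes, against 1 and 3 without it. WIPI1 (-0.28, adjusted p = 0.0418) and LAMP1 (0.13, adjusted p = 0.0411) were added. Whether the numbers pair the libraries was not settled. Deviations from the group means correlated across 13840 genes by 0.0922, 0.0371 and 0.0246 for equal numbers, and by -0.0632 to 0.0273 for unequal ones. Every one of the 42 genes had at least 265 counts in each library.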
